A study of Mus musculus with 2 samples.

Results

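Glycolysis and glycogen metabolism are described here through 31 genes, chosen by name as the transporters and enzymes that carry glucose from uptake to lactate and into or out of glycogen. All 31 were found among the 16269 reference genes detected in either of 2 long-read RNA-seq libraries from mouse heart. Glycolysis splits glucose into pyruvate in the cytosol and yields ATP without oxygen, and glycogen is the branched glucose polymer that muscle stores and breaks down locally. Most steps can be run by more than a single gene product (isozymes), and striated muscle is known for its own forms of phosphofructokinase, phosphoglycerate mutase, enolase and glycogen phosphorylase. The newborn heart is known to burn mainly glucose and lactate and to turn to fatty acids in the weeks after birth.

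Both libraries come from heart tissue of male B6CASTF1/J mice, hybrids of C57BL/6J and CAST mice, at 14 days of age, with no treatment and no mutation named. They form 1 group, named replicate 1 and replicate 2. The labels give 2 tissue samples under 1 donor label and describe both libraries with the same text. They mention 3 males without saying whether animals were pooled. SDs therefore measure only the spread between these libraries, which may be partly technical. The p-values printed below cover counting error only and hold no estimate of that spread. Replicate 1 held 1059016 counts on reference genes and replicate 2 held 1064679, so that 1 count was worth 0.944 and 0.939 CPM (counts scaled to the total on reference genes). All 6 cardiomyocyte markers were detected, at 3.15% of the counts of replicate 1 and 3.40% of those of replicate 2. The 4 atrial markers took 0.487% in replicate 1 and 0.120% in replicate 2, the 5 erythroid markers 1.73% and 1.28%, while 0 counts of replicate 1 but 65 of replicate 2 lay on the 3 thymus markers. The 6 markers of fast skeletal muscle had 3 and 9 counts, with 4 of them at 0 in both libraries.

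The splice choices described further on turn on short stretches of sequence, so these are shown first. Pkm encodes pyruvate kinase, the last enzyme of glycolysis, and its transcripts hold either of 2 mutually exclusive coding exons of equal length, the M1 exon of the muscle enzyme or the M2 exon of the form found in growing cells. The pair lies on the plus strand of chromosome 9 of mm10, M1 at 59675029 to 59675195 (exon 9 of Pkm-202) and M2 at 59675568 to 59675734 (exon 9 of Pkm-201). Each exon has 167 bases, and capitals mark the 64 bases at which the exons differ.
Pkm M1 exon: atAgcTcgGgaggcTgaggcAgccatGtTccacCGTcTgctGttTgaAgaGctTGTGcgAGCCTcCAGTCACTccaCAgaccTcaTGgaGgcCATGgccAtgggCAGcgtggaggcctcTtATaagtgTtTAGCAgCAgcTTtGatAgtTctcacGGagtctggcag
Pkm M2 exon: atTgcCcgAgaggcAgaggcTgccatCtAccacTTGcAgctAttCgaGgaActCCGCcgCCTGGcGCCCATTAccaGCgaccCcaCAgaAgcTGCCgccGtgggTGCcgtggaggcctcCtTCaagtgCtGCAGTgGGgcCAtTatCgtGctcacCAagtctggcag

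Eno1, the enolase found in most tissues, showed a choice of the same kind between 2 coding exons of 59 bases each on the plus strand of chromosome 4. The upstream exon spans 150241767 to 150241825 (exon 4 of Eno1-205) and the downstream exon 150242122 to 150242180 (exon 4 of Eno1-202). Capitals mark the 29 bases at which they differ. Exon 4 of Eno3-201, the muscle enolase, has the same length and shared 25 bases with the upstream exon and 40 with the downstream exon, compared position by position. All exon sequences are those of the GENCODE M21 transcripts, made on the C57BL/6J reference, and CAST alleles are not shown.
Eno1 upstream exon: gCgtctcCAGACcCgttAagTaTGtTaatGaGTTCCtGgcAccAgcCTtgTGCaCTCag
Eno1 downstream exon: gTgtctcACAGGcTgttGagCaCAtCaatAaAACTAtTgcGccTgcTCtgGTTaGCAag

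Together the 31 genes took 2.59% of the counts on reference genes in replicate 1 (95% exact interval 2.56 to 2.62, counting error only) and 2.66% in replicate 2 (2.63 to 2.69). The 7 genes of lower glycolysis, from glyceraldehyde 3-phosphate to pyruvate, took 0.930% ± 0.0053 (SD, n = 2 for all such values), and the 9 genes of upper glycolysis 0.90% ± 0.020. The sum for lower glycolysis holds Gapdh at only 14 and 13 counts. It leaves out 2385 counts in replicate 1 and 2383 in replicate 2 on near copies of the Gapdh sequence, described below. The lactate dehydrogenases added 0.60% ± 0.040. Glucose transporters and hexokinases, which start the pathway, took 0.0436% ± 0.0081, and the 9 genes of glycogen metabolism 0.153% ± 0.017. The 5 highest genes (Aldoa, Eno3, Ldha, Ldhb and Pkm) held 72.8% of the counts of the 31 in replicate 1 and 72.5% in replicate 2.

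**Figure D1:**
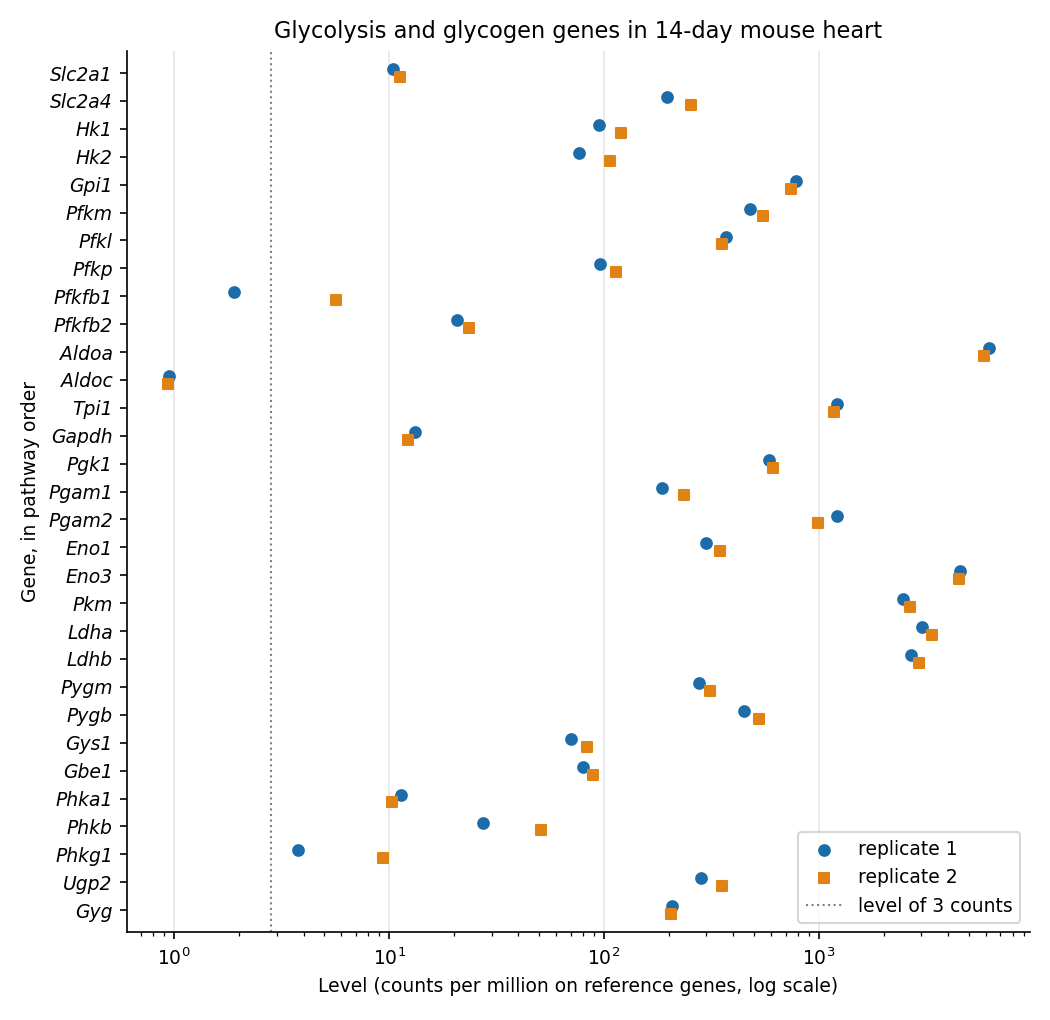
Level of each of the 31 genes in CPM on a log axis, in the order of the pathway, with replicate 1 as circles and replicate 2 as squares; the dotted line is the level of 3 counts. Levels run from 1 count in each library for Aldoc to 6541 and 6262 counts for Aldoa, and Gapdh, at 14 and 13 counts, lies far below Tpi1 and Pgk1 on either side of it.

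In the plot of levels by gene, ranges over the libraries separated 18 of the 30 pairs of neighbours in the order of mean CPM and overlapped in 12. A long read counts 1 for a transcript of any length, so CPM is not divided by length. Divided by the length of the dominant annotated transcript, the highest levels per kilobase were those of Aldoa, Eno3, Ldhb, Ldha, Pgam2 and Pkm, so that Ldhb then stood above Ldha and Pgam2 above Pkm.

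Glucose enters heart muscle through the transporters GLUT4, encoded by Slc2a4 and moved to the surface by insulin, and GLUT1, encoded by Slc2a1. Slc2a4 had 209 counts in replicate 1 and 271 in replicate 2, or 226 ± 40.4 CPM. Slc2a1 had 11 and 12 counts, or 10.8 ± 0.63 CPM. Slc2a4 thus held 95% of the counts of the pair in replicate 1 (exact interval 91.2 to 97.5) and 95.8% in replicate 2 (92.7 to 97.8).

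Hexokinase traps glucose in the cell as glucose 6-phosphate. Hk1, the form of most tissues, had 100 and 128 counts, and Hk2, the form of insulin-sensitive muscle and fat, had 81 and 114. Hk1 held 55.2% of the pair's counts in replicate 1 (47.7 to 62.6) and 52.9% in replicate 2 (46.4 to 59.3), and both intervals held 50%. This near balance rested on which reads were taken as Hk2. A single-exon model of 2286 bases with the class Genomic carried 24 of 81 Hk2 counts in replicate 1 and 37 of 114 in replicate 2, against 24 and 27 on the full Hk2-201 of 18 exons. With models of 2 or more exons alone the share of Hk1 was 62.4%, and with annotated models alone 75.0%.

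Glucose 6-phosphate isomerase, Gpi1, had 829 and 794 counts (764 ± 26.2 CPM), of which 747 and 739 lay on Gpi1-201. Phosphofructokinase, the main control point of glycolysis, was spread over 3 genes. Pfkm, the muscle gene, had 509 and 585 counts, the liver-type gene Pfkl 392 and 379, and the platelet-type gene Pfkp 101 and 121. Pfkm held 50.8% of the step in replicate 1 (47.7 to 53.9) and 53.9% in replicate 2 (50.9 to 56.9), Pfkl 39.1% and 34.9%, and Pfkp 10.1% and 11.2%. On annotated models alone the mean share of Pfkm was 46.3%. The end of Pfkp overlaps the opposite-strand gene Pitrm1 over 748 bases, and the sources do not say whether counting used strand. The 22-exon Pfkp-207 carried 91.1% of the counts of Pfkp in replicate 1 and 84.3% in replicate 2, and single-exon models 0. The effect of the overlap on the counts of Pfkp was not tested.

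The enzymes that set fructose 2,6-bisphosphate, an activator of phosphofructokinase, were rare. Pfkfb2, the heart form, had 22 and 25 counts, and Pfkfb1, the liver and muscle form, had 2 and 6, so their shares have wide intervals. Pfkfb2 held 91.7% of the pair in replicate 1 (73.0 to 99.0) and 80.6% in replicate 2 (62.5 to 92.5).

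Aldolase splits the 6-carbon sugar, and its muscle form Aldoa (ENSMUSG00000030695.16, chromosome 7, 126795234 to 126800036) was the highest of the 31 genes, with 6541 counts in replicate 1 and 6262 in replicate 2 (6176 and 5882 CPM). It ranked 15 of all detected genes by mean CPM. The brain form Aldoc had 1 count in each library, under the level of 3 counts, so that Aldoa held all but 1 count of the step in each library. Triose phosphate isomerase, Tpi1, followed with 1280 and 1258 counts (1195 ± 19.2 CPM).

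Phosphoglycerate kinase, Pgk1, the first ATP-yielding step, had 623 and 654 counts (601 ± 18.4 CPM). Phosphoglycerate mutase was carried mostly by the muscle gene Pgam2, with 1280 counts in replicate 1 and 1053 in replicate 2, against 198 and 252 for the Pgam1 of other tissues. The share of Pgam2 was 86.6% in replicate 1 (84.8 to 88.3) and 80.7% in replicate 2 (78.4 to 82.8), and these intervals did not overlap.

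Enolase showed a clear lead of its muscle gene. Eno3 had 4784 and 4785 counts (4506 ± 16.3 CPM) and Eno1 317 and 368 (322 ± 32.7 CPM), which gave Eno3 93.8% of the step in replicate 1 (93.1 to 94.4) and 92.9% in replicate 2 (92.1 to 93.5). Pkm had 2597 and 2820 counts (2550 ± 139 CPM).

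Lactate dehydrogenase interconverts pyruvate and lactate, with an A subunit typical of fast muscle and a B subunit typical of adult heart. Ldhb had 2855 and 3106 counts and Ldha 3204 and 3588, so neither gene dominated. Ldhb held 47.1% of the step in replicate 1 (45.9 to 48.4) and 46.4% in replicate 2 (45.2 to 47.6), and both intervals lay below 50%. Ldha also led on annotated models alone, where the mean share of Ldhb was 45.9%. Only per kilobase did Ldhb lead, at 51.7%, although a long read counts 1 for a transcript of any length. The dominant transcripts have 1304 bases for Ldhb and 1588 for Ldha.

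**Figure D2:**
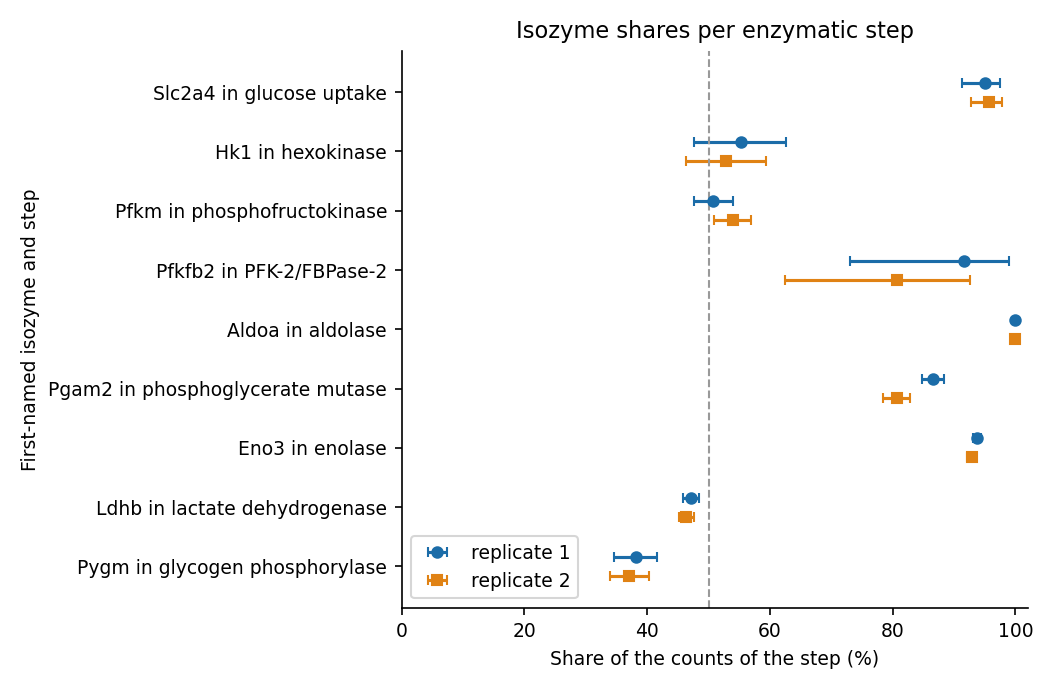
Share of the first-named isozyme in the counts of its step, in percent, for replicate 1 (circles) and replicate 2 (squares); bars are 95% exact Clopper-Pearson intervals of counting error and the dashed line marks 50%. Slc2a4, Pfkfb2, Aldoa, Pgam2 and Eno3 lie above 80% in both libraries, Hk1 and Pfkm near 50%, and Ldhb and Pygm below it.

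Glycogen breakdown starts with glycogen phosphorylase. The muscle gene Pygm had 292 and 331 counts and the brain-type gene Pygb 474 and 562, so that Pygm held 38.1% of the step in replicate 1 (34.7 to 41.7) and 37.1% in replicate 2 (33.9 to 40.3), as the plot of isozyme shares shows. Pygm stayed below 50% on annotated models alone (30.9%) and per kilobase (45.0%). Incomplete models were frequent for Pygm, and those that lack the 5′ end of an annotated transcript held 32.9% of its counts in replicate 1 and 36.9% in replicate 2, against 11.0% and 9.25% for Pygb.

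Phosphorylase kinase, which switches phosphorylase on in response to calcium and adrenaline, was detected at low levels in all 3 of the subunit genes studied. The regulatory beta subunit Phkb had 29 and 54 counts, the muscle alpha subunit Phka1 12 and 11, and the muscle catalytic gamma subunit Phkg1 4 and 10. Phkg1 overlaps the opposite-strand gene Sumf2 over 630 bases. The 10-exon Phkg1-201 carried 3 of its 4 counts in replicate 1 and 7 of 10 in replicate 2, and single-exon models 0. Its counts are few, and the effect of the overlap was not tested.

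On the side of synthesis, Ugp2, which makes the UDP-glucose that glycogen is built from, had 301 and 378 counts (320 ± 50.1 CPM). Glycogenin, Gyg, the primer of the polymer, had 220 and 219 counts. Glycogen synthase, Gys1, had 74 and 89 counts and the branching enzyme Gbe1 85 and 95. Gys1 overlaps the opposite-strand gene Ruvbl2 over 290 bases. The 16-exon Gys1-201 carried 54 of its 74 counts in replicate 1 and 53 of 89 in replicate 2, and single-exon models 5 and 10. The effect of this overlap was not tested either.

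Glyceraldehyde 3-phosphate dehydrogenase stood apart from its neighbours in the pathway. Gapdh (ENSMUSG00000057666.18, chromosome 6, 125161715 to 125165605) had 14 counts in replicate 1 and 13 in replicate 2 (12.7 ± 0.71 CPM), while Tpi1 and Pgk1, which act just before and after it, had 1280 and 1258 and 623 and 654. Genes whose GENCODE M21 transcripts match that of Gapdh at 95% identity or more over at least 300 bases held 2385 counts in replicate 1 and 2383 in replicate 2. There were 76 such genes, of which 17 had counts, 15 of them processed pseudogenes, which are intronless copies of a messenger RNA inserted elsewhere in the genome. Gm12671 on chromosome 4 (91851668 to 91852669) had 921 and 913 counts and matched Gapdh over 1002 bases without a difference. Gm12033 on chromosome 11 had 545 and 525 counts, Gm5559 on chromosome 5 385 and 401, Gm7336 on chromosome 7 347 and 360, and Gm13394 on chromosome 2 127 and 127.

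**Figure D3:**
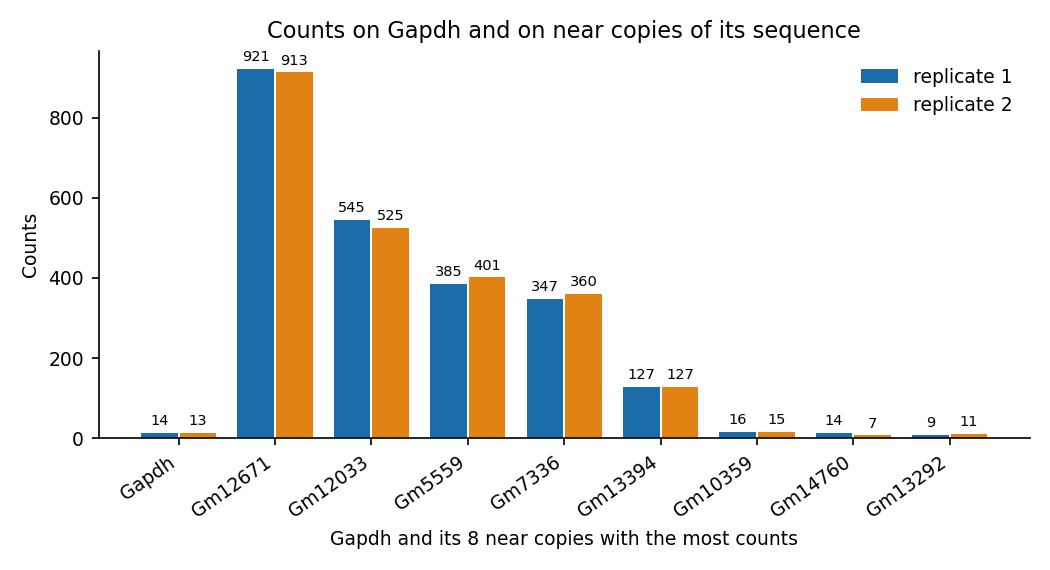
Counts on Gapdh and on the 8 genes with near copies of its sequence that had the most counts, with replicate 1 left of replicate 2. Gapdh itself had 14 and 13 counts, and the 5 highest copies had between 127 and 921 in replicate 1.

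In the plot of Gapdh and its copies, the 5 highest copies had similar counts in both libraries, while Gm14760 had 14 counts in replicate 1 and 7 in replicate 2. The reads on these copies were counted on single-exon models in 99.6% and 99.5% of cases. Processed copies of Gapdh took 21.4% of all counts on processed pseudogenes in replicate 1 and 22.1% in replicate 2. Counted together with its near copies, Gapdh would reach 2265 and 2250 CPM, between Pkm and Tpi1. The files do not say from which locus such a read came, so the 12.7 CPM on the Gapdh locus is not a measure of the gene's messenger RNA. Near copies were found for 7 other genes of the 31 but held few counts: 61 and 95 for Eno1, most of them on Eno1b (54 and 86), 1 and 2 for Pgk1, and 0 for Gpi1, Ldha, Ldhb, Pgam1 and Tpi1. With them added to Eno1, the share of Eno3 in enolase was 91.9%.

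Reads with the M1 exon dominated Pkm. Models with M1 had 2379 counts and models with M2 148 in replicate 1, a share of 94.1% (93.2 to 95), and 2561 and 196 in replicate 2, a share of 92.9% (91.9 to 93.8). Most of these counts lay on annotated transcripts, 2205 and 2392 on Pkm-202.

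Among the reads counted on Eno1 itself, the upstream exon was used more often than the downstream one. The upstream exon had 235 counts and the downstream exon 72 in replicate 1, a share of 76.5% (71.4 to 81.2), and 243 and 106 in replicate 2, a share of 69.6% (64.5 to 74.4). The annotated transcript with the most counts, Eno1-202, holds the downstream exon and had 70 and 104 counts. The 12-exon model with the upstream exon, which had 234 and 240 counts, combined annotated splice sites in a chain that is not annotated (class NIC). Models with both exons in tandem were rare, with 3 and 9 counts. These shares leave out the 61 and 95 counts on near copies of Eno1. The copies were found by their match to Eno1-202, the transcript with the downstream exon. Eno1b matched it at 99.5% over 1736 bases. If those reads came from Eno1, the share of the upstream exon could be lower, which was not tested.

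Phkb also chose between 2 exons of 91 bases, on chromosome 8. The downstream exon (86026457 to 86026547), which is exon 26 of Phkb-201, had 24 and 39 counts. The upstream one (86025198 to 86025288) had 4 and 12, a share of 14.3% (4.03 to 32.7) in replicate 1 and 23.5% (12.8 to 37.5) in replicate 2. No exon of a GENCODE M21 transcript of the gene has exactly this start and end.

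**Figure D4:**
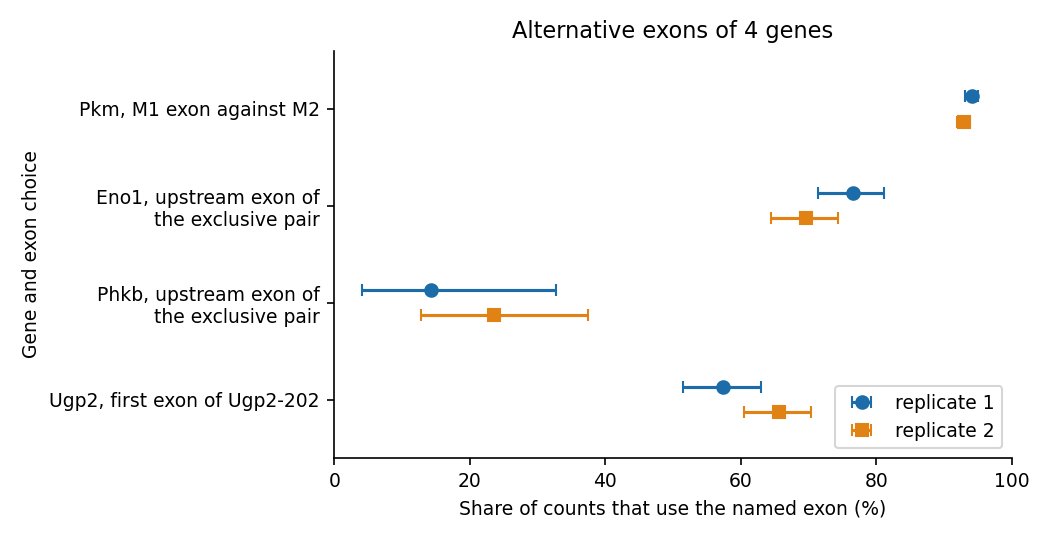
Share of counts that use the named exon, in percent, for replicate 1 (circles) and replicate 2 (squares), with 95% exact intervals of counting error. Intervals of the libraries overlap for all 4 choices, and the M1 exon of Pkm has the narrowest ones.

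Ugp2 began at either of 2 first exons, and the plot of exon choices gives their shares. The first exon of Ugp2-202, whose start is annotated at 21370477 on the minus strand of chromosome 11, had 172 of 300 counts in replicate 1 (57.3%, 51.5 to 63.0) and 242 of 369 in replicate 2 (65.6%, 60.5 to 70.4). The other, of Ugp2-201 with its annotated start at 21371201, had 128 and 125 counts. Ugp2-202 starts its coding region within its own first exon and has 1524 coding bases, and Ugp2-201 starts it in exon 2 and has 1491, so the choice changes the start of the annotated protein. The 250 bases before the RefSeq start nearest to each exon are shown from RefSeq on GRCm38.p6, the assembly also called mm10, with matches to 7 motifs on either strand in capitals. The motifs were the E-box CACGTG, the hypoxia-response core spelled ACGTG (which the E-box holds) or else GCGTG in its other form, the TATA box TATAAA, the CCAAT box, the GC box GGGCGG, and the estrogen-related receptor site AAGGTCA.
Ugp2 upstream start, chr11:21371268-21371517, minus strand: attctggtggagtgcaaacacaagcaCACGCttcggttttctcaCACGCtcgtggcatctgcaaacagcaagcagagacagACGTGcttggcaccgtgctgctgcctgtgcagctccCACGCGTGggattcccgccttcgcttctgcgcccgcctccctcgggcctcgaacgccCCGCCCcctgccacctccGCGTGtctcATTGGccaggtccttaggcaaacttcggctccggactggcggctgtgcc
Ugp2 downstream start, chr11:21370630-21370879, minus strand: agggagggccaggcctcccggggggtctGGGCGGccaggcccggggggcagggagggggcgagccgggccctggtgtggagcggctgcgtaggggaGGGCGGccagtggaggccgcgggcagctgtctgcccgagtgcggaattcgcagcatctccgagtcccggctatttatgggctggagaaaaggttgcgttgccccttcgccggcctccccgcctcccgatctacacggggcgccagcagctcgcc

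The upstream window of Ugp2 held both hypoxia-response cores, the CCAAT box and the GC box, and the downstream window, ahead of the more used exon, held the GC box alone of the 7. For 26 of the 31 genes a promoter window of 250 bases before and 50 after a RefSeq start could be set beside the start of the models with most counts. ACGTG was found in 13 of 26 (50%, against 19.6% of all 32851 windows in the table), GCGTG in 16 (61.5% against 32.4%), GGGCGG in 18 (69.2% against 35.7%) and CCAAT in 12 (46.2% against 37.4%). CACGTG was found in 3 (Pfkfb2, Ldha and Gyg), TATAAA in 1 (Slc2a1) and AAGGTCA in 1 (Tpi1), against 7.15%, 13.6% and 4.72% of all windows. The RefSeq start lay farthest from the start of the models for Gyg (201 bases), Gapdh (170), Ugp2 (152), Tpi1 (138) and Hk1 (121). For these genes the window fits the start in use less closely. Only 1 window per gene was taken for the 26, whereas the comparison takes all windows. These are letter matches, not sites shown to be bound.

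Eno3 varied in its untranslated leader. After the common first donor at 70657267 on chromosome 11, 2776 and 2763 counts joined the acceptor at 70657872 (as in Eno3-201) and 1409 and 1425 the acceptor at 70657760 (as in Eno3-202). Both annotated transcripts start translation at the same base, 70657874, so the coding region of 1302 bases is shared. A donor 12 bases farther downstream carried 276 of 4669 counts in replicate 1 and 337 of 4687 in replicate 2 (5.91% and 7.19%).

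Over all 31 genes, models of annotated transcripts (class Known) carried 90.4% of the counts in replicate 1 and 90.3% in replicate 2, against 80.7% and 80.4% over all reference genes. Incomplete matches to an annotated transcript (ISM) carried 4.39% and 4.40%, against 8.59% and 8.42%. New chains of annotated splice sites (NIC) carried 3.71% and 3.68%, and models with a splice site not in the annotation (NNC) 1.15% and 1.35%. The deposited tables list 549 models of these genes in replicate 1 and 557 in replicate 2, of which 280 and 270 had a single count.

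The genes differed widely in this respect. Of 25 genes with at least 40 summed counts, 11 had over 90% of their counts on annotated transcripts and 5 had under 50%. Those 5 were Hk2, Pfkfb2, Eno1, Gbe1 and Phkb, named after their values were seen. In Gbe1 a 16-exon model of class NIC had 78 of 85 counts in replicate 1 and 90 of 95 in replicate 2, and in Phkb a 31-exon model of that class had 19 of 29 and 36 of 54.

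**Figure D5:**
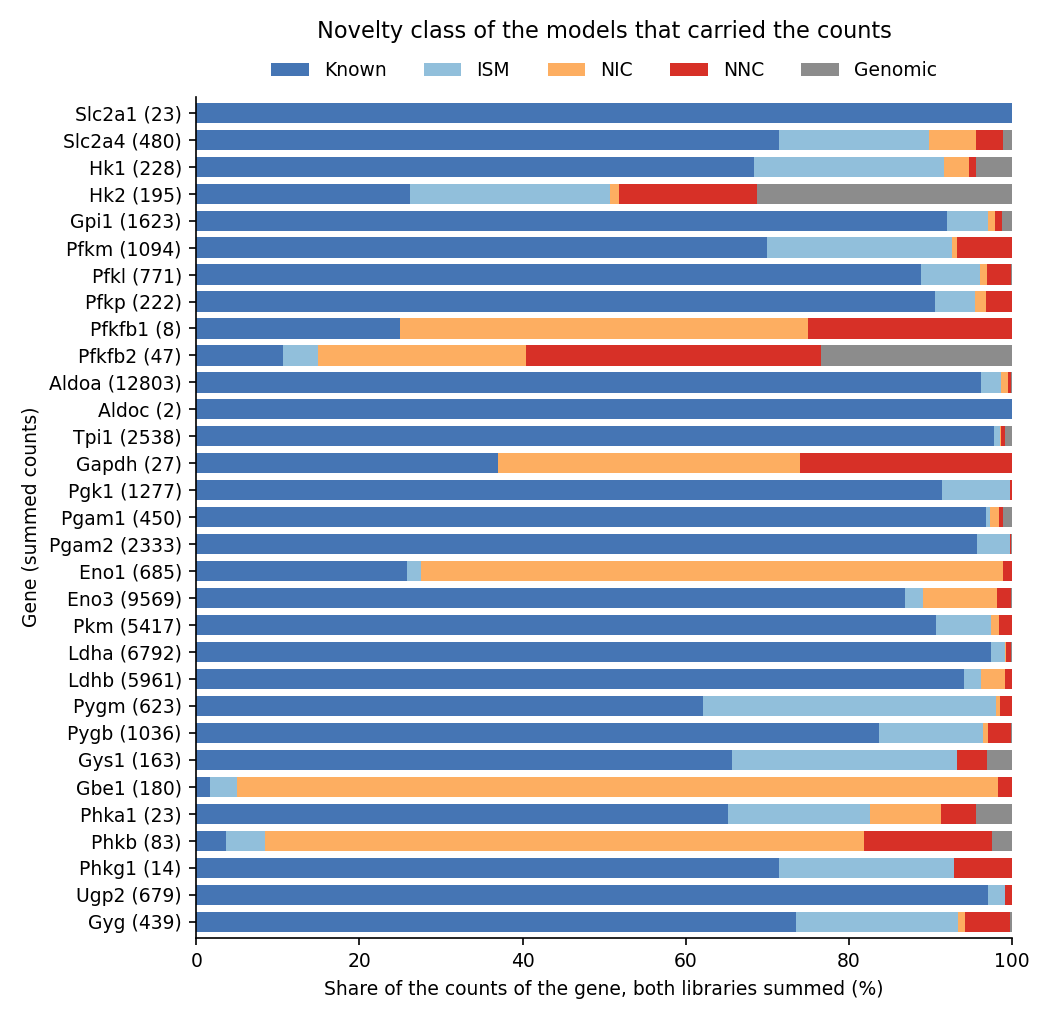
Share of each gene's counts by the novelty class of the model, in percent, both libraries summed, with summed counts in brackets. Known models fill over 90% of the bar for Aldoa, Tpi1, Ldha, Ldhb and Ugp2 among others, while NIC models fill most of the bar for Eno1, Gbe1 and Phkb.

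The plot of novelty classes also shows the share of incomplete models. Pfkm, with a dominant transcript of 2879 bases, had 361 and 404 counts on the full Pfkm-201 and 21.6% and 22.6% on models that lack the 5′ end. Gyg had 158 and 159 counts on Gyg-201 and 46 and 31 on a single-exon model of 781 bases. Slc2a4-201 had 145 and 197 of the counts of its gene, Hk1-202 63 and 93, Pygb-201 395 and 467, and Pygm-201 181 and 202.

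For most of the abundant enzymes a single annotated transcript carried over 90% of the counts in both libraries. Aldoa-201 had 6228 of 6541 counts in replicate 1 and 5984 of 6262 in replicate 2. The same held for Ldha-202 (3108 and 3511 counts), Ldhb-201 (2693 and 2922), Tpi1-205 (1247 and 1216), Pgam2-201 (1220 and 1015), Pgk1-201 (572 and 596) and Pgam1-201 (191 and 245). Pfkl-201 had 342 counts in each library, and Pfkp-207 held 91.1% and 84.3% of the counts of its gene. The leader of Eno3 divided its counts between Eno3-201 (2666 and 2683) and Eno3-202 (1358 and 1382). Among the rarer genes, Gys1-201 had 54 and 53 counts beside a single-exon model with 0 and 10, and Slc2a1-201 had 10 and 12. The low counts of Phka1 and Phkg1 lay mostly on Phka1-201 (7 and 7) and Phkg1-201 (3 and 7). Those of Phkb lay mostly on the NIC model given above, and a second Phkb model had 3 and 11. That second model was classed NIC in replicate 1 and NNC in replicate 2, although its intron chain was the same. Gapdh-203 had 3 counts in each library beside 4 and 3 on a NIC model, and a single-exon Pfkfb2 model had 5 counts in replicate 1 and 0 in replicate 2.

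Between the libraries, each gene with at least 10 summed counts was tested against the library totals by a two-sided exact binomial test with Benjamini-Hochberg adjustment over 10162 genes, which covers counting error only and compares these libraries, not conditions. Of the 29 genes of the pathway tested, 1 was called higher in replicate 1 and 1 higher in replicate 2, and 27 were not called. Over all genes 1.65% were called higher in replicate 1 and 1.6% higher in replicate 2. Pfkfb1 and Aldoc had too few counts to enter. The gene called higher in replicate 1 was Pgam2 (ENSMUSG00000020475.3, chromosome 11, 5798675 to 5803733), at 1209 CPM in replicate 1 and 989 in replicate 2 (log2 ratio of replicate 1 over replicate 2 of 0.29, adjusted p 0.00012 in the exact binomial test). Ldha (ENSMUSG00000063229.15, chromosome 7, 46841475 to 46855626) was called lower in replicate 1, at 3025 CPM there and 3370 in replicate 2 (log2 ratio -0.16, adjusted p 0.00067 in the same exact test).

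Neither call held under every setting. Without the trend of the ratio on transcript length, neither Pgam2 (0.14, adjusted p 0.34) nor Ldha (-0.11, adjusted p 0.072) passed the exact binomial test. With TMM scaling, Ldha did not pass either (-0.07, adjusted p 0.36). The dominant transcript of Pgam2 has 840 bases, and the median log2 ratio was 0.21 over 994 genes of up to 1000 bases and -0.18 over 2394 genes of more than 4000 bases. With edgeR's exact test and a common dispersion, 0 of the 29 passed, and 0 had an unadjusted p under 0.05. That dispersion was estimated from these same libraries taken as replicates, so it already held the difference under test. This setting therefore cannot decide whether the calls hold. The shifts in atrial, erythroid and thymus markers given above ran between the same libraries, as did a shift in the 3 brown fat markers (160 counts in replicate 1 and 78 in replicate 2), and their part in these ratios was not tested. In whole tissue, fewer cells of a type and less RNA per cell cannot be told apart.

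The remaining 27 genes did not pass. The median log2 ratio of the 29 genes was -0.16, beside -0.08 over all genes tested, with 9 genes above 0 and 20 below. Phkg1 (-1.12) and Phkb (-0.87) had the lowest ratios on few counts and did not pass (adjusted p 0.68 and 0.16, exact binomial test). Aldoa, at a log2 ratio of 0.07, did not pass as reported (adjusted p 0.13) but did with TMM scaling (0.15, adjusted p 2.6e-07 in the exact binomial test). With the length trend removed Aldoa was the only gene of the 29 called (0.10, adjusted p 0.0048).

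The balance between a gene's dominant annotated transcript and its other annotated transcripts was compared by Fisher's exact test over 2633 genes. None of the 14 pathway genes tested was called after Benjamini-Hochberg adjustment (over all genes 0.038% were called), and 2 had an unadjusted p under 0.05, Aldoa (0.0044) and Ugp2 (0.044).

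A wider list of 43 further genes of glucose and glycogen metabolism held 0.138% of the counts in replicate 1 and 0.152% in replicate 2. Of these, 36 were detected. The 5 highest were Pgm1, which links glucose 1-phosphate and glucose 6-phosphate (378 and 466 counts), Bpgm, which makes 2,3-bisphosphoglycerate (180 and 199), the lysosomal glucosidase Gaa (154 and 138), the lactate transporter gene Slc16a1 (97 and 125) and the muscle fructose bisphosphatase Fbp2 (96 and 75). Of the 26 tested by the exact binomial test 0 were called, and 1 had an unadjusted p under 0.05.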

How the data were processed

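Long-read RNA was counted per transcript model by the authors, and the deposited values are raw counts, per the file headers, with the novelty class, exon number and length of each model. Coordinates are mm10 with GENCODE M21 genes. Neither the aligner nor the use of strand is given in the sources used here. Counts were summed per reference gene identifier. A second identifier named Aldoa, with 2 counts in replicate 1, was left out. Spike-ins (1.72% and 1.25%) and new genes (2.68% and 2.89%) stayed out of totals and tests. Tests used Python 3.11.15, SciPy 1.17.1 and statsmodels 0.14.6 with a threshold of 0.05, and log2 ratios a pseudocount of 1 CPM. Isoform tests needed 20 annotated counts in each library. Alternatives used edgeR 4.0.16 and DESeq2 1.42.0, and copies BLAST 2.17.0. Both tests were tested on simulated counts that held counting error only. Such counts cannot show how the tests behave with further spread between libraries or a length trend. New models were matched between libraries by intron chain. The text names every pathway gene with counts in both libraries, models above 10% of a gene, and the 5 highest further genes. The genes and lists were chosen with earlier results of these data known. Intervals and floors cover counting error only and hold no estimate of the spread between libraries. The reads carry no molecular identifiers.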

Additional observations from a re-analysis of the deposited data

Results flagged for a closer look

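Counts on near copies of pathway genes lie outside the gene sums above and exceed the 3 counts that a count of 0 allows. For Gapdh they came to 2385 in replicate 1 and 2383 in replicate 2, beside 14 and 13 on the gene itself. For Eno1 they came to 61 in replicate 1 and 95 in replicate 2, beside 317 and 368. The locus that gave rise to these reads was not tested. With 2 libraries in 1 group, no sample could be set against others as an outlier and no groups could be compared.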

How the results depend on the processing

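The alternatives recomputed calls, shares and ratios. In either direction 2 genes were called as reported, 1 (Aldoa) with the length trend removed and 0 with edgeR's exact test (0 in each direction). The edgeR dispersion came from these same libraries taken as replicates, so its result cannot decide the calls. Higher in replicate 1 were 2 (Aldoa and Pgam2), and in replicate 2 0, under TMM and under DESeq2 size factors. In replicate 2 there were 0 with the length trend removed and 2 (Ldha and Pkm) on Known models. The first-named isozyme held over 50% in 7 of 9 steps as reported, 6 on Known models and 8 per kilobase. The summed share of 2.63% was 2.51% of all deposited counts, 2.95% on Known models and 2.86% with near copies added, an alternative chosen after seeing the data. The share on Known models of 90.36% was 91.2% over models of at least 2 counts. Log2 ratios that had not passed changed sign, again without passing: Pgk1 (0.019 under TMM and edgeR, 0.018 under DESeq2 size factors, 0.0074 with the length trend removed), Slc2a1 (0.021 with the trend removed) and, on Known models, Pfkl (-0.0015), Eno3 (-0.0035), Gys1 (0.029, against -0.26 as reported), Phka1 (-0.17, against 0.12) and Gyg (-0.0062). Leaving out each library in turn gave a Pkm M1 share of 92.9% to 94.1%, a summed share of 2.59% to 2.66% and a Known share of 90.3% to 90.4%. No paired analysis was possible because there is 1 group. The depth limits Aldoc, Pfkfb1, Phkg1, Phka1 and Slc2a1, with under 15 counts in each library. Gapdh also had under 15 counts in each library, but 2385 in replicate 1 and 2383 in replicate 2 lay on its near copies.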
